A study of Sus scrofa with 20 samples.

Results

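Snout skin was set against skin of the upper (dorsal) side of the foot in 10 of the 20 libraries of a pig skin series, with 1 library per site from each of 5 pigs. All pigs were wild-type female Yorkshire animals, aged 4, 5, 6, 7 or 8 months, and pigs are named here by their age because each age occurs once. Each site was sampled with a punch biopsy of whole skin, kept in RNAlater and sequenced as stranded mRNA. The series also holds volar foot and flank skin of the same animals.

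The snout arm held the 3 libraries labelled snout from the pigs of 4, 7 and 8 months and 2 libraries labelled volar from the pigs of 5 and 6 months. The upper foot arm held the 3 libraries labelled dorsal from the pigs of 4, 7 and 8 months and 2 libraries labelled snout from the pigs of 5 and 6 months. The libraries of the pigs of 5 and 6 months (the second set, by their library numbers) were thus placed against their labels: their arm was chosen by their measured expression, as the site of the first set they were closest to. Over the 2000 most variable genes, centred within each set, the 2 libraries labelled volar correlated with the first-set snout mean at r = 0.717 (6-month pig) and 0.673 (5-month pig), and with the first-set volar mean at -0.037 and 0.0138. The 2 libraries labelled snout correlated with the first-set dorsal mean at r = 0.682 and 0.662, and with the next closest site, flank, at 0.461 and 0.507. With 336 skeletal muscle genes and genes high in the 7-month snout library left out, the closest sites were the same (r = 0.715, 0.662, 0.671 and 0.647). These correlations run across genes and chose the arms, so they describe the placement and test nothing.

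For that reason every p-value below comes from the 3 pigs whose labels were taken as given, snout against dorsal in the first set. Values of the pigs of 5 and 6 months are printed beside them as description, with no test. Values are CPM, read counts scaled to the size of the library, on a common scale over the 10 libraries, in the order of the pigs of 4, 8, 7, 6 and 5 months. A gene was called when its edgeR adjusted p was under 0.05, and fold changes are log2 values of snout minus upper foot. The value after ± was calculated back from the edgeR test, as the size of the fold change over the square root of the F statistic. It therefore restates the test and is not a separately estimated standard error. For genes with few or no counts in a site it does not measure the uncertainty of the fold change. CPM is not corrected for transcript length, so levels are compared between libraries and not between genes.

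Skin keeps a record of where on the body it formed. In the trunk and limbs, fibroblasts and other skin cells keep expressing the HOX genes, transcription factors set along the body axis in the embryo, while much of the facial skin derives from neural crest that forms ahead of the HOX domain and relies on factors such as MSX1, ALX1 and PAX3. The epidermis of each site also has its own keratins, the filament proteins of epithelial cells, and its own density of hair follicles and glands. The pig snout ends in a moist, nearly hairless disc that is rich in touch receptors, whereas the upper foot is haired skin.

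Library totals were between 34809878 and 66906489 counts, and 14493 to 15051 genes reached 10 counts. The highest correlation between any 2 of them was 0.991 and none were copies. The median correlation was 0.969 within the snout arm, 0.988 within the upper foot arm and 0.947 between them. In 3 snout libraries, those of the 7-, 6- and 5-month pigs, skeletal muscle genes held 1.60%, 1.24% and 0.755% of the counts, against 0.00267% and 0.00239% in the snout of the 4- and 8-month pigs and 0.00397% to 0.00655% in the upper foot.

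The 4 genes by which the sites were recognised separated the arms in every pig. They were named from earlier results of these data, so their levels are given without a test. KRT24, a type I keratin, was at 19569, 14149, 11054, 15984 and 17190 CPM in the snout and at 0.0511 to 0.309 CPM in the upper foot. The upper foot libraries thus held only traces of a transcript that was abundant in every snout library. MSX1, a homeobox factor of the developing face and limb tip, was at 99.3, 62.1, 90.1, 83.1 and 89.6 CPM in the snout against 5.48 to 10.7 CPM in the upper foot. TBX5, the T-box factor of the forelimb, was at 0, 0.0197, 0, 0 and 0.0168 CPM in the snout against 5.36, 7.81, 6.14, 9.43 and 5.80 CPM in the upper foot. HOXC10, a posterior HOX gene, had no count in any of the 5 snout libraries and 2.96, 3.53, 2.56, 2.71 and 2.94 CPM in the upper foot. The regrouped libraries of the 5- and 6-month pigs lay with the arm they were placed in for all 4 genes, as the placement would give.

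**Figure D1:**
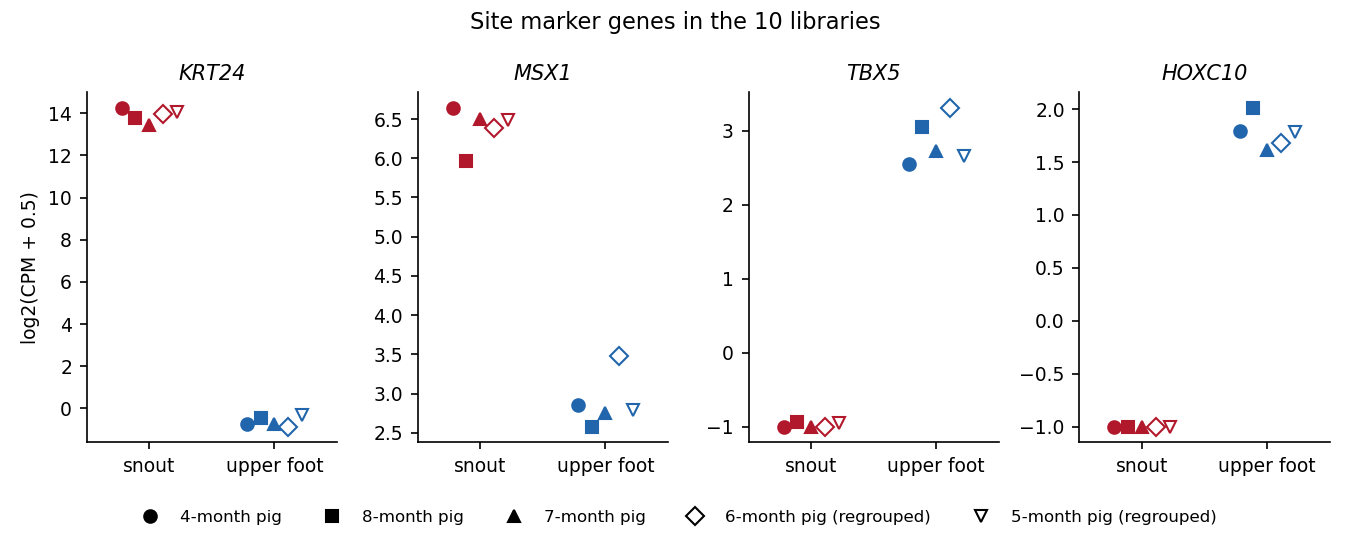
Site marker genes in the 10 libraries, as log2(CPM + 0.5) on the vertical axis, with a separate scale for each gene. Each point is 1 library, its shape gives the pig, and open points are the libraries placed against their labels. The arms do not overlap for any of the 4 genes, with KRT24 at 11054 CPM or more in the snout and at 0.309 CPM or less in the upper foot.

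Of 15302 genes tested in the first set, 1212 (7.92%) were called, 765 higher in snout (5%) and 447 lower (2.92%), and 3377 had an unadjusted p under 0.05. Leaving out 1 of the 6 snout and dorsal libraries lowered the total to between 597 (without the 7-month dorsal) and 790 (without the 7-month snout). These 6 refits are called removals below, and the number that ended a gene's call is given beside the gene where it was not 0. The median log2 fold change over all genes was 0.02. Of the called genes, 438 were higher and 376 lower by a log2 fold change of at least 1. Upper-quartile scaling gave 599 higher and 530 lower, which moved the share of higher calls from 63.1% to 53.1%. In the second set, 752 of the 765 higher genes (98.3%) were higher in the snout arm of both pigs and 443 of the 447 lower genes (99.1%) were lower in both, against 37.4% and 39.3% of all genes tested. No called gene went the other way in both pigs. Because expression placed those libraries, this agreement is not independent evidence. Over all 5 pigs, 2866 genes (18.7%) did not overlap between the arms, 1544 higher in the snout arm (10.1%) and 1322 lower (8.64%). With plain CPM in place of the common scale, which shifts the median of all genes from -0.01 to -0.15, the split was 923 higher and 2249 lower. In these bulk biopsies, fewer cells of a type and less RNA per cell cannot be told apart.

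**Figure D2:**
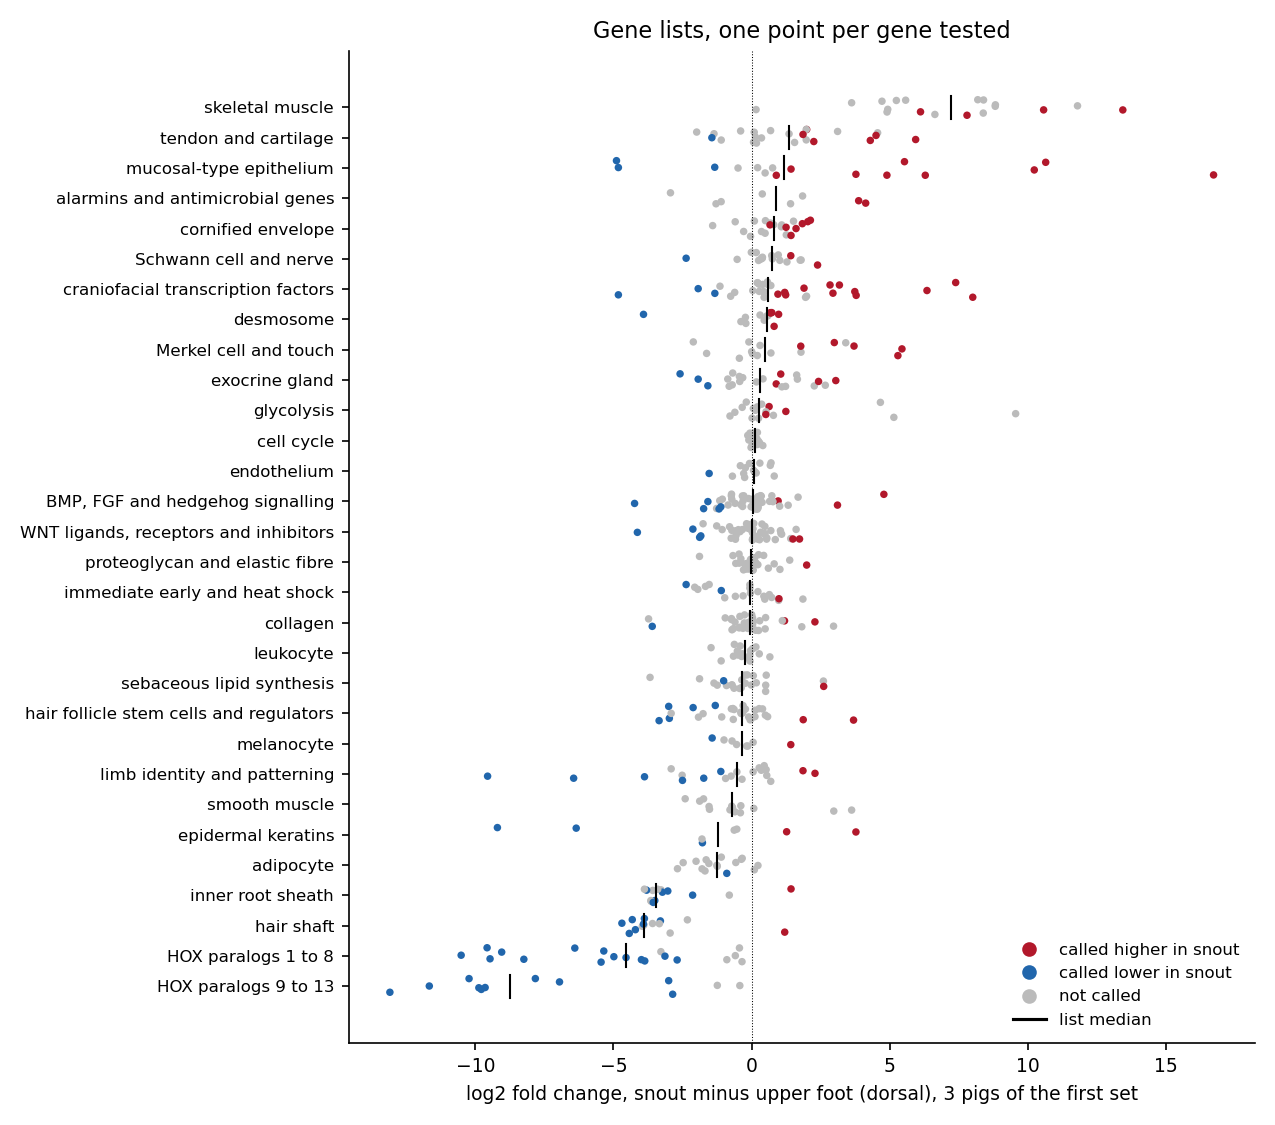
Log2 fold change (snout minus upper foot, first set, horizontal axis) of every gene tested in 30 gene lists (rows), 1 point per gene. Red and blue points were called higher and lower in snout, grey points were not called, and black bars are list medians. The HOX lists lie to the left, with medians of -8.73 and -4.54, and the skeletal muscle list to the right at 7.22, with 14 of its 18 members not called.

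Most HOX genes were lower in snout. Of 31 HOX genes tested across the 4 clusters, edgeR called 24 lower and none higher, against 2.92% and 5% of all genes. None were higher at an unadjusted p under 0.05, by DESeq2 or by limma-voom. All 8 HOXA genes, 5 of 6 HOXB genes and all 9 HOXC genes were lower, with median log2 fold changes of -8.03, -3.57 and -9.64. With genes that had no snout count set at their lower bound, the HOXA and HOXC medians were -6.04 and -6.82. Only 2 of 8 HOXD genes were called lower, with a cluster median of -0.74. Summed over their tested genes, the HOXA cluster was at 0.493 to 0.749 CPM in the snout and 25.1 to 78.7 CPM in the upper foot. The HOXC cluster was at 1.07 to 1.75 CPM in the snout and 25.4 to 38.6 CPM in the upper foot. The HOXD sums were closer, at 13.7 to 19.0 CPM in the snout and 26.3 to 33.2 CPM in the upper foot. Whether the clusters differ in their response was not tested.

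By position within the clusters, 14 of the 19 tested paralogs 1 to 8 and 10 of the 12 tested paralogs 9 to 13 were lower in snout. Over all genes the share was 2.92%. The list medians were -4.54 and -8.73, and the second became -6.89 with the same bounds. Without the site marker HOXC10, 9 of 11 paralogs 9 to 13 were lower. Several HOXC genes had no count in the 3 first-set snout libraries, so their folds are lower bounds against 3 counts over the group. HOXC9 was at 1.97, 2.77, 2.34, 3.20 and 2.54 CPM in the upper foot, at least 133-fold higher than in the first-set snout, and it had no count in the second-set snout either (edgeR adjusted p = 2.45e-05). HOXC8 was at 2.96 to 5.52 CPM in the upper foot, at least 207-fold higher, with 0.0168 CPM in the 5-month snout as its only trace. Bounds for HOXC10, HOXC11, HOXC12 and HOXC6 were at least 169-fold, 125-fold, 113-fold and 74.7-fold.

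HOXC13, the HOX gene of nail and hair follicle, was the exception among the HOXC genes in being detected in every snout library. It was at 1.07, 1.73, 1.37, 1.45 and 1.04 CPM in the snout and 9.27, 16.2, 8.27, 19.6 and 13.4 CPM in the upper foot (log2 fold change -3.00 ± 0.57, edgeR adjusted p = 0.00963). Its arms were well apart in every pig. HOXC5 was at 0.782 to 1.35 CPM in the upper foot, with 2 counts in all in the first-set snout.

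Within HOXD, HOXD11 and HOXD12 were called lower and the other members were not, and the members named here were chosen after their values were seen. HOXD11 was at 0.745, 0.473, 0.0955, 0.524 and 0.503 CPM in the snout against 2.72 to 4.13 CPM in the upper foot (log2 fold change -2.85 ± 0.61, edgeR adjusted p = 0.0178), and 3 removals ended the call. HOXD12 had no count in the 5 snouts and was at 0.179 to 0.527 CPM in the upper foot, at least 17.3-fold higher over the first set. Its adjusted p was 0.0427, and 0.0761 with the pig as a block, and every removal ended the call. HOXD8 was at 9.40 to 11.5 CPM in the snout and 14.5 to 16.5 CPM in the upper foot (-0.59 ± 0.22, adjusted p = 0.142), without overlap. HOXD9 overlapped, at 1.19 to 3.02 CPM against 1.69 to 2.74 CPM (-0.42 ± 0.34, adjusted p = 0.543), as did HOXD3, at 0.541 to 1.63 CPM against 1.02 to 2.27 CPM. HOXD10 was at 1.02 to 2.82 CPM in the snout and 3.91 to 6.26 CPM in the upper foot (-1.24 ± 0.45), with adjusted p = 0.128 and 0.0164 with the pig as a block. The snout therefore held HOXD8, HOXD9, HOXD3 and HOXD10 transcripts in every library, unlike HOXC9 to HOXC12.

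**Figure D3:**
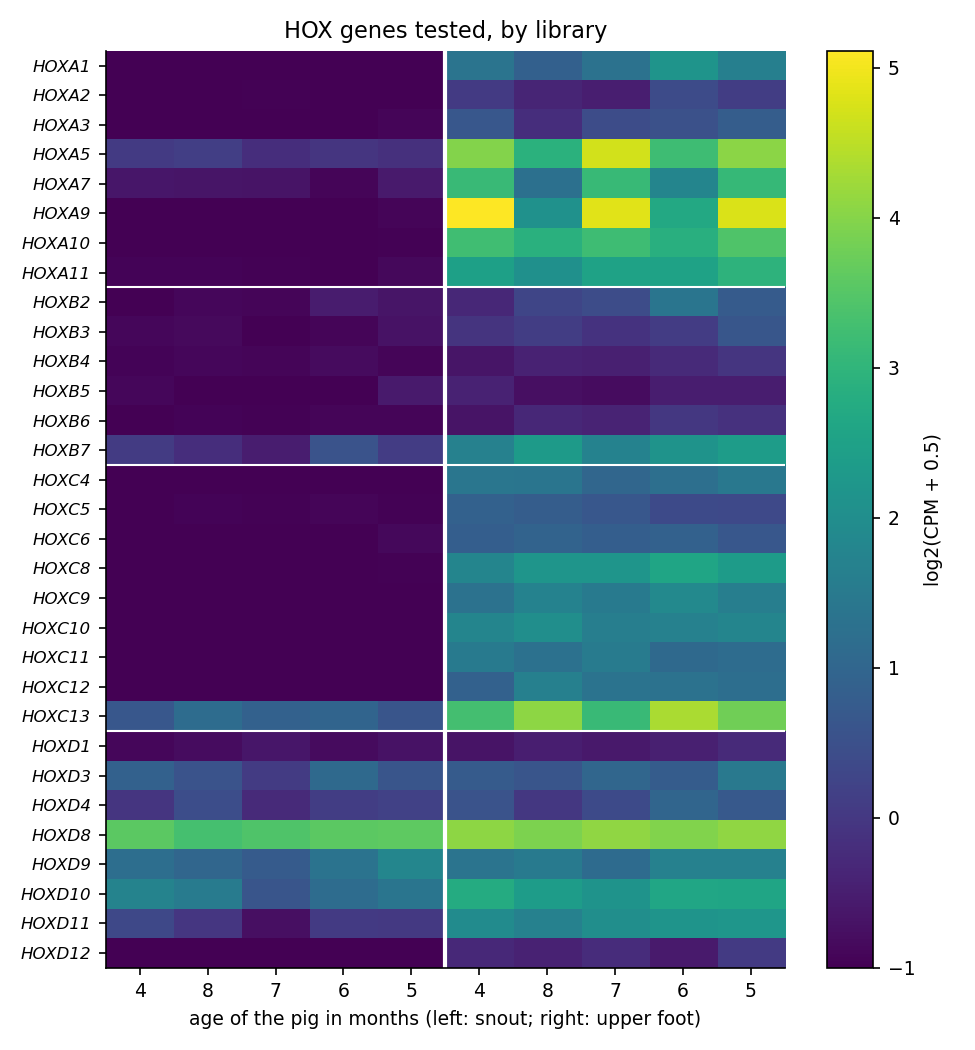
Level of each HOX gene tested (rows, by cluster) in each library (columns, by age of the pig), as log2(CPM + 0.5) in colour. Snout libraries are left of the white line and upper foot libraries right of it. Rows of the HOXA, HOXB and HOXC clusters are dark in snout except HOXA5, HOXB7 and HOXC13 in part, while HOXD3, HOXD8, HOXD9 and HOXD10 are visible in both arms.

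HOXA9, HOXA7 and HOXA5 varied between pigs on the upper foot. HOXA9 had no count in the first-set snout and was at 34.1, 3.74, 28.2, 5.93 and 26.9 CPM in the upper foot, at least 1238-fold higher over the first set (edgeR adjusted p = 0.00736), but limma-voom and a fit of the 6 libraries alone did not call it. Its upper foot values fell in a low pair, the 8- and 6-month pigs, and a high trio. HOXA7 was at 8.37, 1.91, 8.15, 2.94 and 8.05 CPM in the upper foot and 0.0308 to 0.184 CPM in the snout (-5.45 ± 0.73, adjusted p = 0.00148). HOXA5 was at 15.4, 6.97, 25.3, 8.77 and 16.1 CPM against 0.366 to 0.591 CPM (-4.98 ± 0.57, adjusted p = 0.000606). The same 2 pigs were lowest for all 3 genes. HOXA10 was more even, at 6.77 to 10.3 CPM in the upper foot with 1 trace of 0.0168 CPM in the snout, at least 460-fold higher over the first set. HOXA11, chosen after its values were seen, was also even, at 3.72 to 7.29 CPM in the upper foot and at 0.0503 CPM or less in the snout.

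Limb identity genes outside the HOX clusters went in both directions. Of 21 tested, 6 were lower in snout and 2 higher, against a background of 2.92% and 5%, with a list median of -0.53. Without the site marker TBX5, 5 of 20 were lower. Without the 7-month snout library 3 were lower, and without any 1 of the 6 libraries 2 to 5 were. TBX5 was described above. TBX4, the T-box factor of the hindlimb, was at 0.527, 0.631, 0.382, 0.616 and 1.06 CPM in the snout and 4.36, 1.12, 3.34, 1.46 and 4.80 CPM in the upper foot (-2.50 ± 0.55, edgeR adjusted p = 0.0207). Its upper foot values were lowest in the 8- and 6-month pigs, the pigs in which TBX5 was highest. The call was lost on leaving out any library but the 8-month dorsal one, with adjusted p = 0.0745 without the 7-month snout. SP8, a zinc finger factor of the limb's outgrowth ridge, was at 0 CPM in 4 snout libraries and 0.0796 CPM in the 7-month snout, against 2.13 to 3.08 CPM in the upper foot (-6.44 ± 0.81, adjusted p = 0.00231).

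**Figure D4:**
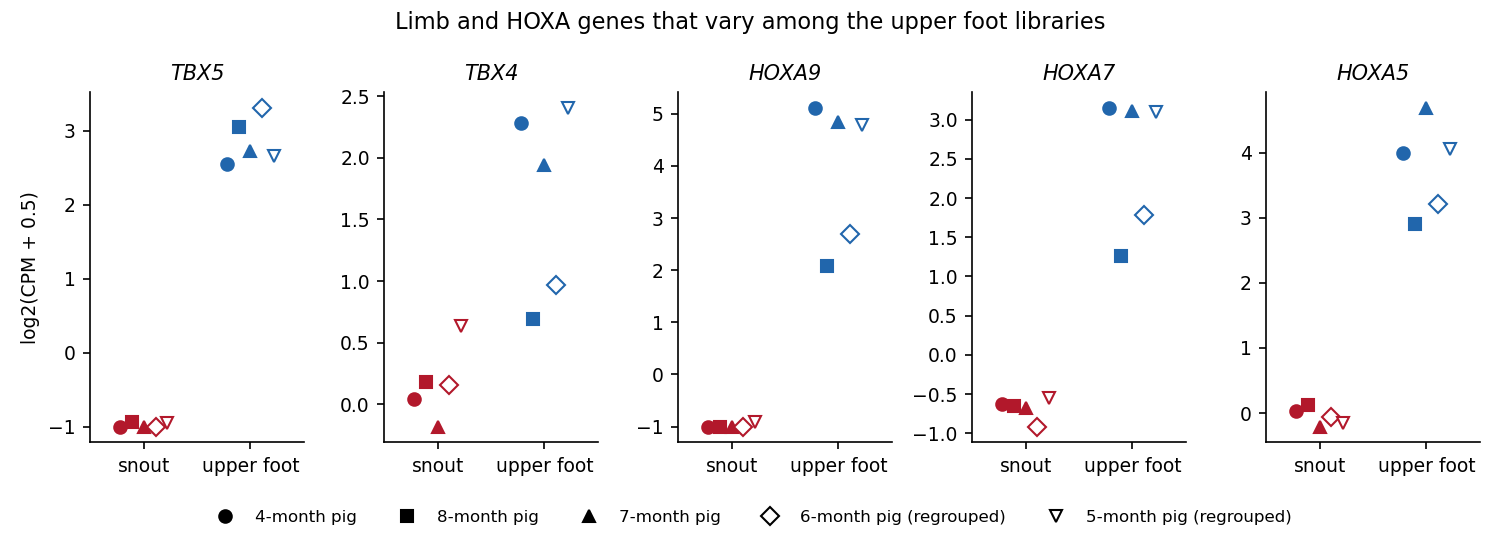
Limb and HOXA genes in the 10 libraries, as log2(CPM + 0.5) with a separate scale for each gene. Point shapes give the pig, and open points are the libraries placed against their labels. On the upper foot the 8- and 6-month pigs were lowest for TBX4, HOXA9, HOXA7 and HOXA5 and highest for TBX5 (7.81 and 9.43 CPM).

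LMX1B, the factor that specifies the dorsal side of the limb, was higher in snout, not lower. It was at 24.9, 23.8, 20.7, 18.4 and 15.3 CPM in the snout and 4.42 to 6.42 CPM in the upper foot (2.30 ± 0.28, edgeR adjusted p = 0.000932). TBX3, a T-box factor of limb and other organs, was at 61.9, 33.6, 61.4, 45.8 and 50.6 CPM against 11.7 to 17.4 CPM (1.86 ± 0.25, adjusted p = 0.00158). Both genes were higher in the snout of every pig. EN1, the factor of the ventral side of the limb, was not called (-0.74 ± 0.54, adjusted p = 0.489), with 0.318 to 1.02 CPM in the snout and 0.837 to 1.71 CPM in the upper foot.

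Among 33 tested transcription factors of the face, 12 were higher in snout and 3 lower, against 5% and 2.92% of all genes. The list median was 0.58. Without the site marker MSX1, 11 of 32 were higher. Without the 7-month snout library 6 were higher and 2 lower, and 5 to 9 were higher over the removals of 1 library. ALX1, a homeobox factor of the frontonasal process, was at 20.8, 21.4, 21.4, 21.7 and 22.3 CPM in the snout and 0 to 0.486 CPM in the upper foot (7.39 ± 1.05, edgeR adjusted p = 0.00417). Its level was nearly the same in the snout of all 5 pigs. PAX3, a paired-box factor of neural crest and of melanocyte precursors, was at 6.11, 4.79, 5.19, 6.41 and 8.23 CPM against 0.0232 to 0.182 CPM (6.35 ± 0.89, adjusted p = 0.00194). Over the 5 pigs MSX1 was higher by 2.90 to 3.79 on the log2 scale.

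A few further members of the face list were chosen after their values were seen. ALX4 was at 5.38 to 9.39 CPM in the snout and 0.585 to 1.48 CPM in the upper foot (2.95 ± 0.72, edgeR adjusted p = 0.0314), and its call was lost on leaving out any 1 of the 6 libraries. SIX2 was at 5.93, 0.651, 4.62, 2.93 and 4.17 CPM against 0.232 to 0.716 CPM (3.74 ± 0.71, adjusted p = 0.0101), with the 8-month snout low, and 1 removal and limma-voom ended the call. PAX7 was at 0.509, 0.217, 1.18, 0.862 and 1.12 CPM in the snout and absent from 4 upper foot libraries, at least 34.9-fold higher over the first set. It was higher in the muscle-bearing snouts than in the other snouts, and the part of muscle was not tested. The adjusted p of PAX7 was 0.0385, and 0.062 with the pig as a block, and every removal ended the call.

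PAX9, a factor of the pharyngeal pouches, of tooth and palate and of oral epithelium, stands on the face list and on the mucosal list and was lower in snout. It was at 0.0182, 0.0197, 0.111, 0.0616 and 0.0838 CPM in the snout and 1.64, 1.49, 1.52, 0.869 and 2.25 CPM in the upper foot (-4.82 ± 0.62, edgeR adjusted p = 0.00126). FOXC1, a forkhead factor of mesenchyme and of sweat gland, was lower too, at 0.727 to 1.70 CPM against 4.20 to 8.10 CPM (-1.93 ± 0.41, adjusted p = 0.0175), with the call ended by 4 removals.

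Part of the genes of mucosal-type epithelium were higher in the snout. Of 16 tested genes of mucosal-type epithelium, the stratified lining of mouth, oesophagus and cornea, 9 were higher in snout and 3 lower. PAX9, described above, was among the lower. Over all genes the shares were 5% and 2.92%, and the list median was 1.16. Summed over the list, the snout libraries were at 39851 to 57173 CPM and the upper foot libraries at 1047 to 1464 CPM. Without the site marker KRT24, 8 of 15 were higher and 3 lower, with a median of 0.90, and the snout sums were 25434 to 37603 CPM. KRT3, the type II keratin known from corneal epithelium, was at 34278, 32237, 25676, 26277 and 21302 CPM in the snout and 3.36, 49.3, 5.24, 6.24 and 17.2 CPM in the upper foot (10.65 ± 1.35, edgeR adjusted p = 0.00128). The highest upper foot value, in the 8-month pig, was still far under the lowest snout value. KRT78, a type II keratin of differentiating layers that stands on the epidermal keratin list, was at 119 to 255 CPM against 6.36 to 20.8 CPM (3.78 ± 0.50, adjusted p = 0.00138). Near-identical keratin copies can share reads, and how the authors' counting divided them is not given in the sources used here.

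Some proteases and envelope proteins of such linings were higher too. TMPRSS11D, a serine protease of airway and upper digestive epithelium, was at 158, 126, 136, 152 and 158 CPM in the snout and 0 to 0.163 CPM in the upper foot (10.23 ± 0.49, edgeR adjusted p = 6.83e-06). TMPRSS11A, of the same family, was at 140 to 203 CPM against 1.78 to 4.37 CPM (5.54 ± 0.58, adjusted p = 0.000403). CRNN, cornulin of the oesophageal surface, was at 304, 441, 504, 375 and 727 CPM against 9.56 to 17.3 CPM (4.90 ± 0.48, adjusted p = 0.000241). A2ML1, a secreted protease inhibitor of upper epidermal layers, was at 240 to 529 CPM against 2.26 to 5.39 CPM (6.29 ± 0.59, adjusted p = 0.0002). All 4 genes kept their calls under every alternative run. TMPRSS11F, another protease of that family, went the other way, at 1.00 to 2.94 CPM in the snout and 31.6 to 66.9 CPM in the upper foot (-4.89 ± 0.72, adjusted p = 0.00285).

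Other genes with the largest rises had no list. KLK12, a kallikrein-related peptidase, was at 130, 212, 132, 157 and 197 CPM in the snout and 0.924 to 1.43 CPM in the upper foot (7.28 ± 0.44, edgeR adjusted p = 2.45e-05). C6orf15 was at 573, 895, 630, 1579 and 996 CPM against 6.82 to 10.4 CPM (6.46 ± 0.40, adjusted p = 2.45e-05). FAM163B was at 3.85 to 6.30 CPM against 0.0256 to 0.123 CPM (6.22 ± 0.78, adjusted p = 0.00114). CBR2, a carbonyl reductase, was at 55.6 to 204 CPM in the snout, and in the upper foot it ranged from 0.352 to 10.8 CPM with the 5-month pig highest (6.63 ± 1.29, adjusted p = 0.0117), and 2 removals ended the call. CP, ceruloplasmin, was at 2.33, 86.8, 151, 20.4 and 1.96 CPM in the snout and 0.581 to 1.18 CPM in the upper foot (6.55 ± 1.15, adjusted p = 0.00719). The 4- and 5-month snouts were thus little above the upper foot for CP, and limma-voom and a fit of the 6 libraries alone did not call it. MYLK2, the skeletal muscle myosin light chain kinase, was at 0.782, 1.04, 27.6, 18.7 and 7.36 CPM against 0.264 to 0.639 CPM (4.99 ± 1.28, adjusted p = 0.0383). Its adjusted p was 0.0924 with the pig as a block and 0.195 without the 7-month snout, and 4 removals ended the call. DESeq2, limma-voom and a fit of the 6 libraries alone did not call MYLK2.

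Keratins of ordinary epidermis were divided. Of 8 tested, 2 were higher in snout and 3 lower, against 5% and 2.92% of all genes. KRT2, the keratin of the upper spinous and granular layers, was at 9.44, 2.78, 9.31, 3.70 and 10.2 CPM in the snout and 4940, 4515, 3365, 4033 and 2892 CPM in the upper foot (-9.20 ± 1.19, edgeR adjusted p = 0.00138), 595-fold lower in the first-set means. KRT77 was at 0.339 to 1.27 CPM against 66.8 to 116 CPM (-6.35 ± 0.83, adjusted p = 0.00143). KRT1, the suprabasal type II keratin, was at 3836, 5499, 4270, 5778 and 4768 CPM against 10692 to 17858 CPM (-1.78 ± 0.24, adjusted p = 0.00163). Its type I partner KRT10, chosen after its values were seen, was higher in snout, at 9086 to 20040 CPM against 2614 to 6804 CPM (1.27 ± 0.25, adjusted p = 0.0125), with the call ended by 2 removals. The 2 partners thus moved in opposite directions in every pig.

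Cornified envelope genes, which build the protein shell of the outermost cells, were higher in snout in 7 of 21 tested and lower in none by edgeR. Over all genes the shares were 5% and 2.92%. The list median was 0.80, and at an unadjusted p under 0.05, 1 member was lower, as by DESeq2. TGM3 and TGM5 are transglutaminases that crosslink the envelope. TGM5 was at 322, 266, 197, 223 and 215 CPM in the snout and 52.1 to 73.9 CPM in the upper foot (2.04 ± 0.31, edgeR adjusted p = 0.00324). TGM3 was at 951 to 1183 CPM against 307 to 563 CPM (1.43 ± 0.23, adjusted p = 0.0045). SERPINB12, a protease inhibitor, rose by 1.84 ± 0.28 (adjusted p = 0.00343) and SBSN, suprabasin, by 1.25 ± 0.21 (adjusted p = 0.00542). CNFN, cornifelin, rose by 2.13 ± 0.39 (adjusted p = 0.00766) and SPINK5, the inhibitor of epidermal kallikreins, by 1.61 ± 0.31 (adjusted p = 0.0101), both chosen after their values were seen. The number of members called was 6 or 7 over the removals of 1 library.

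Desmosome genes, whose products join keratinocytes, were higher in 5 of 13 tested and lower in 1, against 5% and 2.92% of all genes. The rises were small, and with any 1 library left out 0 or 1 member was called higher. DSP, desmoplakin, was at 16099, 13526, 11782, 8493 and 8579 CPM in the snout and 9061, 8648, 8239, 6568 and 6070 CPM in the upper foot (0.69 ± 0.18, edgeR adjusted p = 0.0427). DSG1 rose by 0.98 ± 0.22 (adjusted p = 0.0207) and PKP1 by 0.82 ± 0.21 (adjusted p = 0.0402). Every removal ended the calls of DSP and PKP1 and 5 ended that of DSG1, and with upper-quartile scaling 1 member of the list was called higher. DSG4, the desmoglein of the hair cortex and cuticle, fell by 3.91 ± 0.81 on the log2 scale (adjusted p = 0.0164), with the call ended by 1 removal.

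S100A8 and S100A12, calcium-binding alarmins of stressed epithelium and of neutrophils, were the 2 genes called of 8 alarmins tested, against 7.92% of all genes. Over the removals 1 to 3 were higher. No alarmin was called lower by edgeR, but 2 were lower at an unadjusted p under 0.05 and by DESeq2. S100A8 was at 60.4, 39.7, 214, 197 and 417 CPM in the snout and 2.22 to 11.7 CPM in the upper foot (4.13 ± 0.81, edgeR adjusted p = 0.0119). S100A12 was at 162, 82.3, 413, 528 and 790 CPM against 7.74 to 24.3 CPM (3.88 ± 0.64, adjusted p = 0.00518). Both genes were highest in the 3 muscle-bearing snouts, and the part of muscle in the result was not tested. The call of S100A8 was lost without the 8-month dorsal (adjusted p = 0.0550) and in a fit of the 6 libraries alone (0.0657), while that of S100A12 held under every alternative run. The summed leukocyte markers were at 251 to 312 CPM in the snout and 282 to 332 CPM in the upper foot, with 0 of 18 called by edgeR, DESeq2 or limma-voom and 1 at an unadjusted p under 0.05.

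Part of the hair follicle genes were called lower in snout. Of 14 tested hair shaft genes 7 were lower and 1 higher, against 2.92% and 5% of all genes, with a list median of -3.89. Over the 5 pigs 12 lay lower and 1 higher without overlap, against 8.64% and 10.1% of all genes. Of 14 inner root sheath genes 6 were lower and 1 higher, with a median of -3.45, and again 12 lay lower and 1 higher without overlap. Expression placed the second-set libraries, so the counts without overlap are description and test nothing. Summed levels were 114 to 293 CPM in the snout against 1403 to 4489 CPM in the upper foot for the shaft, and 1628 to 2477 CPM against 7099 to 17376 CPM for the sheath. The number of calls depended on the libraries. With any 1 of the 6 left out, 0 to 3 shaft genes and 1 sheath gene were called lower, while DESeq2 called 11 and 10.

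KRT71, an inner root sheath keratin, was at 130, 406, 373, 556 and 263 CPM in the snout and 2358, 5683, 2351, 6878 and 5104 CPM in the upper foot (-3.50 ± 0.81, edgeR adjusted p = 0.0262). KRT35, a hair cortex keratin, was at 7.84, 28.4, 17.0, 18.4 and 14.2 CPM against 119 to 281 CPM (-3.30 ± 0.79, adjusted p = 0.0297). KRTAP11-1, a matrix protein of the shaft, was at 9.02 to 39.5 CPM against 178 to 1409 CPM (-4.69 ± 1.05, adjusted p = 0.0224). In all 3 genes the 4-month snout was lowest, and every snout value lay under every upper foot value. KRT72 and KRT40 fell by 3.80 ± 0.95 (adjusted p = 0.0344) and 4.43 ± 1.05 (adjusted p = 0.0289). Every removal ended the calls of KRT71, KRT35 and KRT72, 5 ended that of KRT40 and 4 that of KRTAP11-1. Limma-voom did not call KRT72, and a fit of the 6 libraries alone did not call KRTAP11-1. KRT85, a cortex keratin chosen after its values were seen, was at 24.8 to 98.0 CPM against 326 to 917 CPM (-2.95 ± 0.90) and was not called (adjusted p = 0.0757), but its adjusted p was 0.0170 with the pig as a block. Without the 7-month snout, adjusted p was 0.0667 for KRT71, 0.0897 for KRT35 and 0.0532 for KRTAP11-1.

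Regulators of the follicle included steadier calls. GATA3, a zinc finger factor of the inner root sheath, was at 8.91, 9.72, 10.1, 8.01 and 8.71 CPM in the snout and 113, 65.0, 59.9, 66.1 and 69.2 CPM in the upper foot (-3.03 ± 0.41, edgeR adjusted p = 0.00168). LGR5, a WNT co-receptor of follicle stem cells, was at 1.76 to 5.15 CPM against 21.9 to 54.2 CPM (-2.98 ± 0.37, adjusted p = 0.00221). SOX9, a factor of the outer root sheath and its stem cells, was at 9.38 to 30.9 CPM against 71.5 to 99.3 CPM (-2.11 ± 0.38, adjusted p = 0.00763). These 3 genes kept their calls under every alternative run. LGR6, a relative of LGR5 found in the upper follicle and in epidermis, was higher in snout, at 31.2, 15.7, 16.3, 11.1 and 13.3 CPM against 4.20 to 6.38 CPM (1.87 ± 0.37, adjusted p = 0.0121), with the call ended by 1 removal. The whole regulator list had 5 of 30 lower and 2 higher, against 2.92% and 5% of all genes, with a median of -0.36. With any 1 library left out, 3 or 4 were lower and 0 or 1 higher.

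Most signalling genes were not called, but in both lists the share called lower was above that of all genes. Of 49 WNT pathway genes 2 were higher and 4 lower, and of 46 BMP, FGF and hedgehog genes 3 were higher and 5 lower, with medians of 0.03 and 0.06, against 5% higher and 2.92% lower over all genes. With any 1 library left out, 1 WNT gene was called higher and 4 lower, and 0 or 1 of the BMP, FGF and hedgehog genes were higher and 4 or 5 lower. WNT5A, a ligand of outgrowing mesenchyme, was at 62.4, 45.8, 42.7, 49.2 and 64.2 CPM in the snout and 16.0 to 26.1 CPM in the upper foot (1.50 ± 0.15, edgeR adjusted p = 0.000278). WNT3 was lower, at 11.2 to 18.8 CPM against 37.8 to 79.0 CPM (-2.12 ± 0.35, adjusted p = 0.00481), as was WNT16, at 6.54 to 14.0 CPM against 21.8 to 49.1 CPM (-1.84 ± 0.24, adjusted p = 0.00128). FZD7, a WNT receptor, fell by 1.88 ± 0.28 (adjusted p = 0.00268). GREM1, a BMP inhibitor, fell by 1.58 ± 0.23 (adjusted p = 0.00219). The ligand BMP3 fell by 1.73 ± 0.29 (adjusted p = 0.00481), and GDF7, a ligand chosen after its values were seen, rose by 4.79 ± 0.97 (adjusted p = 0.0136), with the call ended by 3 removals.

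Of 16 tested genes of Merkel cells and touch endings 5 were higher in snout and none were lower by edgeR, with a list median of 0.50. Over all genes 5% were higher and 2.92% lower. At an unadjusted p under 0.05, 3 list members were lower, and DESeq2 called 2 lower. Merkel cells are the touch-sensing cells at the base of the epidermis. ISL1, a LIM homeobox factor of Merkel cells and sensory neurons, was at 6.29, 1.22, 7.05, 7.64 and 6.35 CPM in the snout and 0.0697 to 0.185 CPM in the upper foot (5.44 ± 0.81, edgeR adjusted p = 0.00276). CCK, a neuropeptide, was at 21.7, 21.5, 17.8, 23.9 and 18.2 CPM against 0.193 to 0.893 CPM (5.30 ± 0.83, adjusted p = 0.00369). KRT20, the keratin of Merkel cells, was at 9.82, 4.51, 4.74, 3.42 and 7.94 CPM against 0.442 to 1.42 CPM (3.00 ± 0.57, adjusted p = 0.0104), with the call ended by 1 removal. The arms were separate in all 3 genes. SYT1, a synaptic vesicle protein, rose by 1.78 ± 0.43 (adjusted p = 0.0298), a call ended by 5 removals. POU4F3, chosen after its values were seen, was at 0.216 to 1.00 CPM against 0 to 0.182 CPM (3.71 ± 0.96, adjusted p = 0.0399), a call ended by every removal and by testing without a count filter. ATOH1, the factor that specifies Merkel cells, also chosen after its values were seen, was at 1.04 to 3.96 CPM against 0.0465 to 0.654 CPM (3.41 ± 1.08). It was not called (adjusted p = 0.0826), but its adjusted p was 0.0263 with the pig as a block. Without the 7-month snout 3 list members were called, and over the removals of 1 library 2 to 4.

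Schwann cell and nerve genes had 2 of 17 higher and 1 lower, against 5% and 2.92% of all genes. Over the removals 0 to 2 were higher and 0 to 2 lower, DESeq2 called 5 higher and upper-quartile scaling 1. SOX10, the factor of Schwann cells and melanocytes, rose by 1.42 ± 0.38 (edgeR adjusted p = 0.0447), and by 0.99 with adjusted p = 0.164 without the 7-month snout. EGR2, a myelination factor that is also an immediate early gene, fell by 2.37 ± 0.51 (adjusted p = 0.0177). Of the removals 5 ended the call of SOX10 and 4 that of EGR2. The call of SOX10 was also lost by limma-voom, in a fit of the 6 libraries alone, with upper-quartile scaling and without a count filter. MITF, the master factor of melanocytes, fell by 1.43 ± 0.14 (adjusted p = 0.00024), at 23.7 to 33.6 CPM against 65.4 to 90.8 CPM. Of 8 tested melanocyte genes, MITF was the only 1 called lower and SOX10 the only 1 called higher, with a list median of -0.36. The other 6 were not called.

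Gland genes split. Of 22 tested exocrine gland genes 4 were higher and 3 lower, against 5% and 2.92% of all genes. With 1 library left out, 1 to 4 were higher and 1 to 3 lower. BEST2, an anion channel of sweat gland, was at 54.3, 22.7, 27.4, 14.8 and 11.8 CPM in the snout and 1.13 to 7.34 CPM in the upper foot (3.05 ± 0.73, edgeR adjusted p = 0.0289), with the call ended by 3 removals. AQP5, the water channel of secretory cells, was at 46.3, 111, 64.9, 73.2 and 59.1 CPM against 9.27 to 21.0 CPM (2.27 ± 0.68). It was not called (adjusted p = 0.0712). Its arms did not overlap, but 10.1% of all genes lay higher in the snout arm without overlap, and expression placed the second-set libraries. BEST2 and AQP5 were chosen after their values were seen. CFTR, a chloride channel, was lower, at 0.134 to 0.585 CPM against 0.774 to 2.67 CPM (-2.59 ± 0.57, adjusted p = 0.0206, a call ended by 3 removals), as was the calcium channel TRPV6 (-1.58 ± 0.28, adjusted p = 0.00661). Of 23 sebaceous lipid genes 1 was higher, the fatty acyl reductase FAR2 (2.61 ± 0.37, adjusted p = 0.00219). The lipid droplet protein PLIN2 was the 1 lower (-1.01 ± 0.18, adjusted p = 0.00639), against 5% higher and 2.92% lower over all genes. With the pig as a block, 2 of the 23 were lower.

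Several enzymes with large falls were uneven between pigs. CPHL1, a relative of ceruloplasmin, was at 867, 1205, 147, 855 and 23.0 CPM in the upper foot and 0 to 0.654 CPM in the snout (-13.56 ± 1.86, edgeR adjusted p = 0.00191). CHIA, an acidic chitinase, was at 228, 214, 102, 144 and 27.8 CPM against 0.603 to 2.40 CPM (-6.62 ± 1.31, adjusted p = 0.013), with the call ended by 1 removal. GLYATL2, a glycine acyltransferase, was at 67.3, 91.7, 27.2, 60.0 and 0.127 CPM against 0 to 0.678 CPM (-7.76 ± 1.24, adjusted p = 0.00435). All 3 were lowest in the upper foot of the 5-month pig and next lowest in that of the 7-month pig. The sulfotransferase SULT1C4 ran from 22.5 CPM in the 8-month pig to 1.40 CPM in the 5-month pig, with 1 count in the first-set snout. TDO2, a tryptophan dioxygenase, had no snout count and ran from 34.1 CPM in the 4-month pig to 1.47 CPM in the 5-month pig, at least 1330-fold higher over the first set (adjusted p = 0.0218, and 0.0563 with the pig as a block), with the call ended by 4 removals. CPHL1, CHIA, GLYATL2, SULT1C4 and TDO2 were not called by limma-voom. FIBCD1, a receptor for acetylated groups such as those of chitin, was at 5.10, 4.14, 10.4, 6.75 and 16.5 CPM against 0.0318 CPM or less (-7.95 ± 0.58, adjusted p = 0.000154), and its highest value was in the 5-month pig.

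In the connective tissue, 6 of 23 tested tendon and cartilage genes were higher in snout and 1 lower, against 5% and 2.92% of all genes. The list median was 1.36. With 1 library left out 3 to 5 were higher, and 4 without the 7-month snout. THBS4, a matrix protein of tendon, was at 1250, 666, 726, 857 and 1239 CPM in the snout and 75.6, 36.4, 23.5, 40.6 and 17.5 CPM in the upper foot (4.30 ± 0.54, edgeR adjusted p = 0.00122). COMP, a matrix protein of cartilage and tendon, was at 74.3, 69.0, 79.3, 59.7 and 64.3 CPM against 1.33 to 4.88 CPM (4.51 ± 0.73, adjusted p = 0.00472). MKX, a homeobox factor of tendon, was at 21.6 to 37.5 CPM against 5.24 to 9.13 CPM (2.25 ± 0.25, adjusted p = 0.000499). TNC, tenascin C, was at 1004, 540, 451, 458 and 408 CPM against 127 to 251 CPM (1.86 ± 0.39, adjusted p = 0.0164), with the call ended by 3 removals. In every snout library all 4 genes were above every upper foot library, and the part of muscle in the differences was not tested. COL2A1, the cartilage collagen, chosen after its values were seen, was at 2.28 to 7.39 CPM against 0.279 to 1.47 CPM (3.11 ± 0.98) and was not called (adjusted p = 0.0796), but its adjusted p was 0.0150 with the pig as a block.

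Most other matrix genes, like most genes tested, were not called. Of 32 collagens 2 were higher and 1 lower, and of 28 proteoglycan and elastic fibre genes 1 was higher, with medians of -0.07 and -0.01. Over all genes 5% were higher and 2.92% lower. With the pig as a block 3 collagens were higher and 2 lower, and 2 of the other matrix genes were higher. COL6A6, a chain of the microfibrillar collagen, was at 6.13, 2.07, 13.9, 7.49 and 12.4 CPM in the snout and 136, 49.9, 85.3, 117 and 272 CPM in the upper foot (-3.59 ± 0.78, edgeR adjusted p = 0.0193), with the call ended by 2 removals. COL28A1 rose by 2.29 ± 0.50 (adjusted p = 0.0186) and COL21A1 by 1.19 ± 0.29 (adjusted p = 0.0319). FMOD, fibromodulin, rose by 2.00 ± 0.45 (adjusted p = 0.023). Every removal ended the call of FMOD, 5 ended that of COL21A1 and 4 that of COL28A1. A fit of the 6 libraries alone did not call COL6A6.

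Markers of other cells a biopsy can hold were seldom called, as was true of all genes (7.92% called). Of 16 adipocyte genes 1 was called, CEBPA, which fell by 0.90 ± 0.22 (edgeR adjusted p = 0.0316), with a list median of -1.25 and sums of 590 to 908 CPM in the snout against 1242 to 1593 CPM in the upper foot. With the pig as a block 3 were lower. Over the 5 pigs 8 of the 16 lay lower without overlap, against 8.64% of all genes. Expression placed the second-set libraries, so this count and that of smooth muscle below are description and test nothing. Of 15 endothelial genes 1 was called, PDPN, a marker of lymphatic vessels and other cells, which fell by 1.53 ± 0.35 (adjusted p = 0.0247). The calls of CEBPA and PDPN were each ended by 5 removals. Of 14 smooth muscle genes none were called by edgeR, though 6 were lower and 1 higher at an unadjusted p under 0.05. DESeq2 called 4 lower, and limma-voom and the fit with the pig as a block 1 each. The list median was -0.70, and 10 of the 14 lay lower in all snout libraries than in all upper foot libraries, against 8.64% of all genes. The list sums overlapped, at 703, 711, 2884, 2496 and 1919 CPM in the snout and 1383 to 1994 CPM in the upper foot. They were highest in the muscle-bearing snouts, and the part of skeletal muscle was not tested. ACTA2, smooth muscle actin, chosen after its values were seen, was at 64.0, 85.2, 142, 137 and 154 CPM in the snout and 255 to 436 CPM in the upper foot (-1.52 ± 0.43), with adjusted p = 0.0564 and 0.0373 with the pig as a block. None of 23 cell cycle genes were called by edgeR, DESeq2 or limma-voom, and 0 had an unadjusted p under 0.05.

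Skeletal muscle transcripts divided the snout libraries from each other. Of 24 muscle genes in the table, 18 were tested. By edgeR 4 were called higher in snout, against 5% of all genes, and 1 with the pig as a block. The count was 13 and 15 without the 4- and the 8-month snout and 0 without any 1 dorsal library. DESeq2 and limma-voom called 0, and 16 had an unadjusted p under 0.05. Summed over the list, the snout libraries were at 28.0, 24.6, 17089, 13277 and 8038 CPM and the upper foot libraries at 36.0 to 64.1 CPM. ACTA1, skeletal muscle actin, was at 0.927, 0.946, 2563, 1386 and 848 CPM in the snout and 0.358 to 0.651 CPM in the upper foot (10.57 ± 2.80, edgeR adjusted p = 0.0446). CKM, muscle creatine kinase, was at 3.67, 3.15, 1390, 1193 and 677 CPM against 1.93 to 2.38 CPM (7.80 ± 2.07, adjusted p = 0.0446). The 4- and 8-month snouts were under every upper foot library for the summed list. Without the 7-month snout library 1 member was called, and the changes were 0.73 for ACTA1 and 0.70 for CKM, with adjusted p = 0.623 and 0.27. With the pig as a block their adjusted p was 0.222 and 0.189, and that of CASQ1, the calcium-binding protein of the muscle's calcium store, was 0.0692. MYL11, a fast-muscle myosin light chain, had adjusted p = 0.0393, and 0.216 without the 7-month snout. The calls of ACTA1, CKM and MYL11 were each ended by 4 removals and that of CASQ1 by 3.

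**Figure D5:**
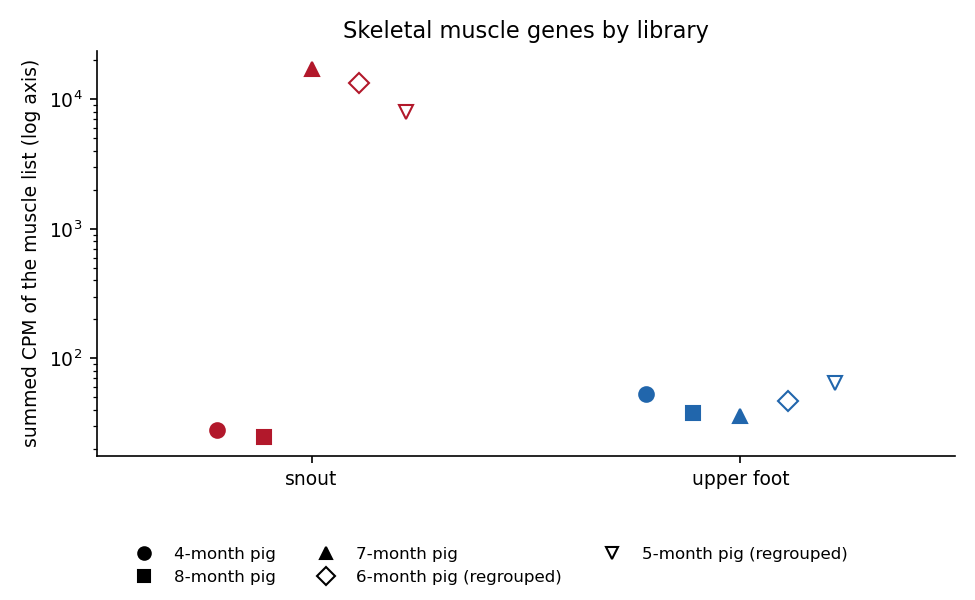
Summed CPM of the skeletal muscle genes in each library, on a log axis, by arm. Point shapes give the pig, and open points are the libraries placed against their labels. The snout libraries of the 7-, 6- and 5-month pigs lie at 8038 to 17089 CPM, and the other 2 lie at 28.0 and 24.6 CPM, under all upper foot libraries.

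PFKM, the muscle form of phosphofructokinase, followed the muscle libraries in part. It was at 74.6, 77.0, 198, 167 and 143 CPM in the snout and 40.9 to 52.2 CPM in the upper foot (1.24 ± 0.32, edgeR adjusted p = 0.0372, and 0.0539 with the pig as a block). Without the 7-month snout its change was 0.62 with adjusted p = 0.0262. Limma-voom and a fit of the 6 libraries alone did not call PFKM. The share of muscle in the difference was not tested. Of 19 glycolysis genes tested 2 others were called, HK1 (0.64 ± 0.15, adjusted p = 0.0278) and PKM (0.52 ± 0.12, adjusted p = 0.0221). Over all genes 7.92% were called. The calls of HK1 and PKM were each ended by 5 removals and that of PFKM by 3, and 0 to 4 glycolysis genes were called over the removals. Of 20 immediate early and heat shock genes, HSPB1, a small heat shock protein, rose by 0.99 ± 0.23 (adjusted p = 0.023), and EGR2 and IER3 fell, IER3 by 1.10 ± 0.27 (adjusted p = 0.0323), with the calls of HSPB1 and IER3 ended by 3 and 5 removals. Thus 1 of the 20 was higher and 2 lower, against 5% and 2.92% of all genes. With the pig as a block 4 of the 20 were higher and 2 lower.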

How the data were processed

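The authors deposited estimated counts per Ensembl gene, for which the submitters' processing notes name Salmon. No version, genome build or annotation is given in the sources used here, so no coordinates are printed. Rounding to whole counts changed 42.2% of the values (those over 0.000000001 from a whole number). Of 19280 genes, 14821 matched a symbol, 4459 did not and 1511 had no count.

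The members, gene lists and tests were chosen with earlier results of these data known. The main test was the edgeR 4.0.16 quasi-likelihood test (R 4.3.3, limma 3.58.1; TMM, robust, filterByExpr with count minimum 10 and total minimum 15, Benjamini-Hochberg adjustment) on the 12 first-set libraries of all 4 sites, with 8 residual degrees of freedom. P-values rest on the spread between 3 pigs within a site, pooled over the 4 sites and not taken from snout and dorsal alone. The 10 libraries were scaled together by TMM for the CPM values, and pig ratios used log2 with 0.5 CPM added. Bounds use 3 counts over the group and cover counting error only. The labels tie same-numbered libraries to 1 pig, which pairs the sites. Snout and dorsal deviations correlated at 0.283, 0.115 and 0.119 in the 4-, 7- and 8-month pigs. The main test had no pig term.

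Named genes had a symbol, adjusted p under 0.05, at least 5 CPM on average in the higher site and no overlap between the 3 and 3 libraries. The 15 with the largest change each way outside the muscle list were taken, with up to 4 called members of each list by adjusted p and a fixed set of site and muscle genes. Other genes are marked as chosen after their values were seen. Some genes the rule names are not reported here. The code was tested on simulated data. Alternatives were DESeq2 1.42.0, limma-voom, the pig as block, other scalings and filters, the 6 libraries alone, lists left out and removal of each library.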

Additional observations from a re-analysis of the deposited data

Results flagged for a closer look

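In 7 of the 224 groups of 5 libraries examined, 1 library stood apart from the other 4 by Dixon's criterion on the log2 scale (critical value 0.71), where chance gives about 1 in 20. CRNN in the upper foot of the 7-month pig was at 9.56 CPM, with the others at 15.7 to 17.3. GLYATL2 in the upper foot of the 5-month pig was at 0.127 CPM, with the others at 27.2 to 91.7. GATA3 and PDPN in the upper foot of the 4-month pig were at 113 and 10.3 CPM, with the others at 59.9 to 69.2 and 5.14 to 6.30. In the snout, SBSN was at 1450 CPM in the 7-month pig (others 1748 to 1841), ISL1 at 1.22 CPM in the 8-month pig (others 6.29 to 7.64) and GREM1 at 20.6 CPM in the 5-month pig (others 5.40 to 7.95).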

How the results depend on the processing

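With the pig as a block the first-set comparison called 1634 genes (999 higher, 635 lower), of which 1165 were also called without it, and the block changed no call of a described gene other than those given in the report. DESeq2 called 2038 (1164 higher, 874 lower), and a log2 fold change of at least 1 left 438 higher. A fit of the 6 libraries alone called 1592 (882 higher, 710 lower), of which 1045 were among the 1212 calls of the main test. Leaving out 1 library gave 597 to 790 calls, with 341 to 555 higher, 217 to 272 lower and 85 to 113 members of the lists (147 with all libraries). The lowest total was without the 7-month dorsal library. Of 107 called genes named by rule, 60 kept their call under every alternative run and 66 under every removal of a library. Removal of the 7-month snout ended 20 of the 107 calls, although it left the highest total of the 6 removals (790). Only XIRP2, a muscle gene chosen after its values were seen, turned direction, from 11.80 to -0.70 without that library, with -0.70 to 12.39 over the removals. Without overlap over the arms, plain CPM gave 923 higher and 2249 lower, the first-set pigs 4880 genes (2603 higher, 2277 lower), and leaving out the 3 muscle-bearing snouts, an alternative chosen after seeing the data, 5173 (2670 higher, 2503 lower). Removal of 1 pig gave 3438 to 3894 (1843 to 2025 higher, 1576 to 1886 lower). Fewer libraries overlap less often by construction, and the other causes were not tested. At this depth genes at 0 in a snout library are bounded only by counting error.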
